A study of Schmidtea mediterranea with 2 samples.

Results

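The gene SMESG000029602.1 marked a class of 554 of 12759 trunk cells of the planarian Schmidtea mediterranea, 250 of 6781 cells from a foxA RNAi library and 304 of 5978 cells from a control RNAi library. A cell was counted as a member when it had at least 200 detected genes and at least 5 unique molecular identifiers (UMIs, each standing for 1 captured mRNA molecule) of SMESG000029602.1, and when these made up at least 0.5% of all its UMIs. The class was therefore chosen by a measured level, and the level of the marker is given as a description.

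Planarians are flatworms that rebuild missing tissue from adult stem cells, called neoblasts, whose progeny take on the fates of the body's differentiated cell types. foxA encodes a forkhead transcription factor that is known in planarians for its role in the formation of the pharynx, the feeding organ that lies in the trunk. RNA interference (RNAi) lowers the transcripts of a gene through double-stranded RNA of its sequence. Differentiated cells can hold very different amounts of mRNA, and many devote a large share of it to a small number of products.

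The animals of both groups were of the strain CIW4. The foxA RNAi group and the control RNAi group each gave 1 library, from trunks of 50 pooled animals that were dissociated and sorted as living, nucleated cells with the dyes Calcein-AM and DRAQ5. Ribosomal 16S cDNA was cut with 30 CRISPR guides, after which the cDNA went through 10 further cycles of PCR. With 1 library per condition, animals, dissociation, sort, library and RNAi cannot be told apart, no test between conditions was possible, and all 95% intervals below cover counting error only.

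The foxA library held 6798 cells with 7852495 UMIs and the control library 6056 cells with 4329019 UMIs. The shallowest deposited cell had 440 UMIs in the foxA library and 286 UMIs in the control library. The requirement of 200 genes removed 17 foxA cells and 78 control cells. The libraries shared 13 cell barcodes, of which 2 belonged to class cells of the foxA library and 0 to class cells of the control library. The files do not pair the gene identifiers with names, so neither the marker nor its companions can be given a function and the class carries no cell type name. For the same reason foxA could not be looked up as a check, and which library is which rests on the labels.

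The marker's UMIs lay almost wholly in the class, as the rule makes likely. The class held 11131 of its UMIs in the foxA library, 97.4% of the total, and 9367 UMIs in the control library, 97.3% of the total. A class cell had a median of 31 marker UMIs in the foxA library (quartiles 17 and 54, range 5 to 251) and 23 in the control library (quartiles 13 and 39.25, range 5 to 152). As a share of the cell's own UMIs, the medians were 1.95% in the foxA library (quartiles 1.09% and 3.36%) and 1.97% in the control library (quartiles 1.22% and 2.99%). The counts per cell were thus higher in the deeper foxA library while the shares lay close together.

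Few cells lay near the limits of the rule. In the foxA library 1 member had exactly 5 marker UMIs and 1 cell outside had 4, against 5 members and 7 cells outside in the control library. Members with 0.5% to 0.6% of their UMIs from the marker numbered 10 in the foxA library and 7 in the control library, and cells between 0.4% and 0.5% numbered 8 and 4 in the same libraries. Outside the class, 1.84% of foxA cells (1.53% to 2.19%) and 1.74% of control cells (1.42% to 2.12%) had at least 1 marker UMI. In cells that passed the same rule for another gene, SMESG000036375.1, the share was 4 of 589 cells in the foxA library (0.679%, median depth 1095 UMIs) and 3 of 281 cells in the control library (1.07%, median depth 903 UMIs). Their median depth lay between those of the class and of all other cells. SMESG000036375.1 is among the lowest genes of the class profile, and 0 of these cells were class members. The share is therefore no independent measure of the marker's background.

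The class was richer in UMIs than the remaining cells in both libraries. In the foxA library a class cell had a median of 1580 UMIs (quartiles 1056 and 2478, range 458 to 6000) and another cell 887 UMIs (quartiles 628 and 1364), a ratio of 1.78. For the control library the medians were 1126 UMIs in the class (quartiles 764 and 1840, range 328 to 5927) and 546.5 UMIs in other cells (quartiles 399 and 801), a ratio of 2.06. The distributions overlapped, and shallow members were present in both libraries. A minimum of 5 marker UMIs favours deep cells, and with the limit of 0.5% alone, at 1 marker UMI or more, the ratios were 1.77 in the foxA library and 2.01 in the control library. Without the marker's own molecules the medians of the class were 1542 UMIs in the foxA library and 1097.5 UMIs in the control library, 1.74 and 2.01 times those of other cells. UMI totals cannot tell the RNA content of a cell from how well it was captured.

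**Figure D1:**
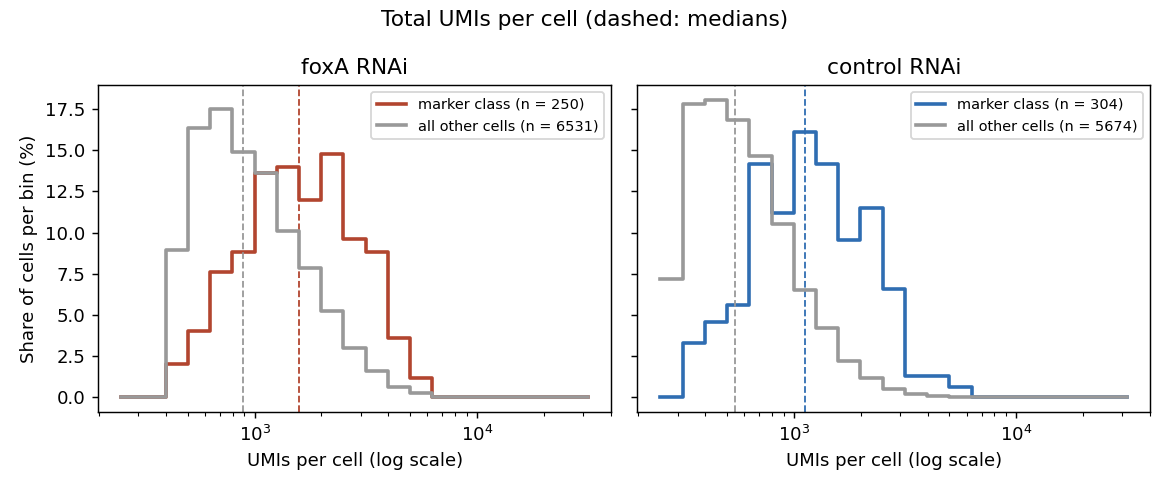
Total UMIs per cell (log scale) against the share of cells in each bin, for the marker class and all other cells of the foxA RNAi library and the control RNAi library, with dashed lines at the medians. The class medians of 1580 and 1126 UMIs lie right of the medians of 887 and 546.5 UMIs of other cells.

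The share of class cells climbed with depth. In the foxA library it was 0.926% of cells with 400 to 600 UMIs, 1.78% at 600 to 1000, 4.58% at 1000 to 2000 and 11.7% at 2000 to 4000 UMIs (84 of 720 cells). Among control cells it was 0.765% of cells under 400 UMIs, 1.39% at 400 to 600, 4.82% at 600 to 1000, 14.3% at 1000 to 2000 and 34.7% at 2000 to 4000 UMIs (58 of 167 cells). Above 4000 UMIs the class made up 11 of 74 foxA cells and 6 of 14 control cells. The minimum of 5 marker UMIs asks for a larger marker share in shallow cells, so the rule itself favours a climb in the lower bins. That minimum alone left out 3 foxA cells and 12 control cells whose marker share reached the limit. The bins were not recomputed without it, and its part in the climb was not tested.

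The same rule applied to 10 other marker genes gave a scale for this depth. In each library 7 classes, this one included, had at least 50 cells, and the SMESG000029602.1 class had the highest median UMI count of the 7. The next class had a median of 1321 UMIs in the foxA library, marked by SMESG000017804.1, and 936 UMIs in the control library, marked by SMESG000002628.1. The lowest had 771.5 UMIs in the foxA library and 481 UMIs in the control library. The 7 classes were not all the same in both libraries. Among smaller classes, the 6 foxA cells marked by SMESG000061387.1 had a median of 1612 UMIs, above the 1580 UMIs of this class.

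Those 10 markers were scarce inside the class. Their summed level was 391 UMIs per 1000000 UMIs (CPM) in class cells and 3942 CPM in other cells of the foxA library, and 423 CPM in class cells and 6005 CPM in other cells of the control library. In the foxA library 9 of the 10 were lower in the class than in other cells, and the remaining one, SMESG000043649.1, was at 0 in both. All 10 of the 10 were lower in the class of the control library. Markers at 0 in the class numbered 3 in the foxA library and 2 in the control library. The highest of them in the class was SMESG000002628.1 at 222 CPM in the foxA library and SMESG000036375.1 at 113 CPM in the control library. Class cells that also passed the rule for another marker numbered 4 (1.6%) in the foxA library and 2 (0.658%) in the control library.

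Despite their depth, class cells spread their mRNA over fewer genes. The medians of detected genes were 748.5 in the class and 620 in other cells of the foxA library, and 568 in the class and 404 in other cells of the control library. When 400 UMIs were drawn from each cell, which left out 0 foxA cells and 1438 control cells (11 of them class members), the order turned round. A class cell then had a median of 260 genes (quartiles 245 and 280) against 329 in other cells of the foxA library, a ratio of 0.790. In the control library it had 259 genes (quartiles 242 and 274) against 320 in other cells, a ratio of 0.809. Among the other marker classes of at least 50 cells, the thinned medians ran from 279.5 to 338 genes in the foxA library and from 267 to 333 genes in the control library. Smaller classes of the control library reached below the 259 genes of this class. The class of 8 control cells marked by SMESG000061387.1 had a thinned median of 184 genes, and that of 3 control cells marked by SMESG000017804.1 had 252 genes.

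The summed profiles differed in the same direction, but other cells are a mixture of many clusters. A sum over a mixture tends to spread over more genes than the sum of a single class. No other single class was summed in this way, so the values below do not set this class apart from other classes. In the foxA library 155 genes supplied the first 50% of all class UMIs, against 1043 genes in other cells, and in the control library 136 genes did so, against 957 in other cells. The 20 most abundant genes of each profile held 24.3% of the UMIs in class cells and 8.56% in other cells of the foxA library. They held 26.1% in class cells and 9.46% in other cells of the control library.

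The marker was accompanied by a set of genes whose UMIs also lay mostly in the class. Levels were set side by side as log2 of (CPM + 10) in class cells over (CPM + 10) in other cells, for the 2185 genes with at least 50 UMIs in the class over both libraries. Cells were chosen by a gene of the same profile, so the values carry no test. In both libraries 284 genes (13.0%) were 2-fold or more higher in the class, 80 (3.66%) 16-fold or more higher, and 215 (9.84%) 2-fold or more lower. A gene passes this filter through its level in the class, so the shares describe the 2185 genes only.

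SMESG000029602.1 itself stood at 23774 CPM in class cells and 41.0 CPM in other cells of the foxA library, a log2 ratio of 8.87. In the control library it stood at 22148 CPM in class cells and 65.8 CPM in other cells, a log2 ratio of 8.19. The 20 leading genes after it were those whose smaller ratio of the 2 libraries was highest. First among them was SMESG000029612.1, at 5070 CPM in class cells and 11.8 CPM in other cells of the foxA library (log2 ratio 7.86). Its values in the control library were 4750 CPM in class cells and 26.6 CPM in other cells (log2 ratio 7.02). Together the 20 genes made up 15.0% of class UMIs and 0.171% of the UMIs of other cells in the foxA library, and 17.0% of class UMIs and 0.232% of those of other cells in the control library. The share of a leading gene's UMIs that lay in the class had a median of 84.1% in the foxA library and 89.0% in the control library. For the marker, by which the cells were chosen, it was 97.4% and 97.3%.

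The log2 ratios of the 20 leading genes ran from 5.70 to 7.86 in the foxA library (median 6.12) and from 5.73 to 7.02 in the control library (median 5.95). The remaining 19 were, in descending order, SMESG000076927.1, SMESG000022139.1, SMESG000068743.1, SMESG000058321.1, SMESG000058307.1, SMESG000034829.1, SMESG000029096.1, SMESG000020501.1, SMESG000076142.1, SMESG000061767.1, SMESG000018472.1, SMESG000042765.1, SMESG000038687.1, SMESG000043277.1, SMESG000068402.1, SMESG000028420.1, SMESG000027979.1, SMESG000026848.1 and SMESG000022049.1. In cells thinned to 400 UMIs, a leading gene had a UMI in 38.8% to 99.6% of class cells and 0.306% to 1.99% of other cells of the foxA library. In the control library it had one in 32.8% to 99.7% of class cells and 0.188% to 3.04% of other cells.

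**Figure D2:**
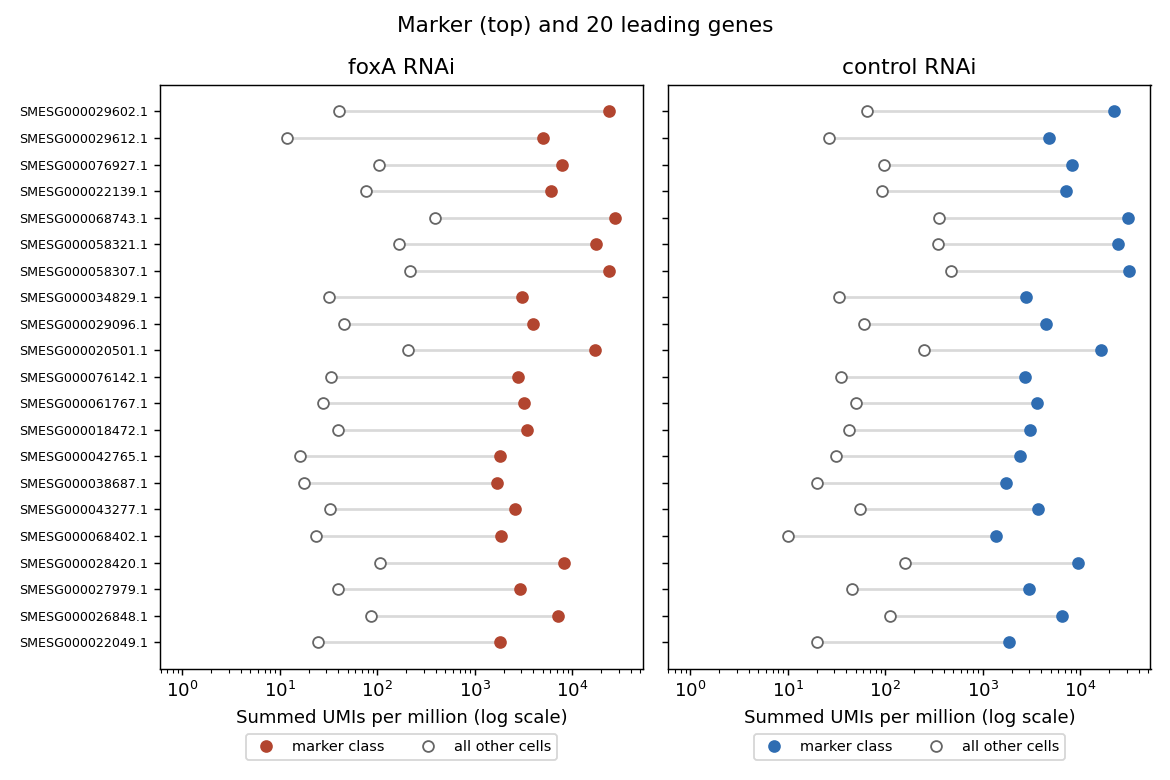
Summed CPM (log scale) of the marker, at the top, and the 20 leading genes in the marker class (filled) and in all other cells (open), in the foxA RNAi library (left) and the control RNAi library (right). In each leading gene's row the class point lies at least 57.5-fold above the point for other cells in both libraries.

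The 5 most abundant genes of the class were all from this set. SMESG000068743.1 had 27785 CPM in class cells of the foxA library and 31144 CPM in those of the control library. SMESG000058307.1 had 23738 CPM in the foxA class and 31437 CPM in the control class. The marker, at 23774 CPM in the foxA class and 22148 CPM in the control class, lay between them in the foxA class and below SMESG000058321.1 in the control class. SMESG000058321.1 had 17499 CPM in the foxA class and 24276 CPM in the control class. SMESG000020501.1 had 17038 CPM in the foxA class and 16281 CPM in the control class. These levels come from 3′ ends and were not scaled by gene length.

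At the other end of the profile were genes that were common elsewhere and scarce in the class. SMESG000036375.1, 1 of the 10 other markers, had 53.4 CPM in class cells and 1494 CPM in other cells of the foxA library (log2 ratio −4.57). In the control library it had 113 CPM in class cells and 1325 CPM in other cells (log2 ratio −3.43). The other 4 of the 5 lowest genes were SMESG000017700.1, SMESG000013389.1, SMESG000043809.1 and SMESG000023842.1, whose log2 ratios ran from −4.61 to −3.22 in the foxA library and from −3.29 to −2.93 in the control library.

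Within the class the leading genes differed in how evenly cells used them. SMESG000068402.1 was the most uneven. Its UMIs came from 151 of 250 class cells in the foxA library (883 UMIs, 60.4% of cells, coefficient of variation over cells 1.40) and from 154 of 304 class cells in the control library (584 UMIs, 50.7% of cells, coefficient 1.59). SMESG000038687.1, with a like total, reached more cells. It had 800 UMIs in 204 foxA class cells (81.6%, coefficient 1.08) and 740 UMIs in 236 control class cells (77.6%, coefficient 1.09). The contrast between the 2 genes held in both libraries and was noticed after their values were seen.

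The summed share of the 20 leading genes gave a view of the class that did not use the marker, although the genes had been picked with it. Its median in class cells was 14.5% of a cell's UMIs in the foxA library (quartiles 11.4% and 18.1%, range 1.77% to 31.6%) and 16.9% in the control library (quartiles 12.9% and 19.9%, range 3.03% to 31.8%). In other cells the median was 0% in both libraries, and the 95th percentile was 0.125% in the foxA library and 0.192% in the control library. A share under 5% was found in 10 foxA class cells and 1 control class cell. A share of 5% or more was found in 56 foxA cells outside the class, of which 43 had a marker UMI, and in 59 control cells outside the class, of which 50 had one.

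From cell to cell inside the class, the marker's share and the leading genes' share moved together in part (Pearson r 0.54, Spearman rho 0.54 over 250 foxA cells, and r 0.35, rho 0.41 over 304 control cells). Both are shares of the same total. The marker's share was nearly flat against total UMIs in the foxA class (r −0.03) and sloped slightly down in the control class (r −0.15). Over all 12759 cells, the genes most like the marker by Pearson correlation of their log-scaled levels were SMESG000058321.1 (0.917), SMESG000029612.1 (0.916), SMESG000068743.1 (0.915), SMESG000058307.1 (0.911) and SMESG000053861.1 (0.909). The first 4 are among the leading 20. These correlations largely record the contrast of class cells with the rest.

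Clustering of all 12759 cells placed the class together. Of its 554 cells, 537 (96.9%, 95.1% to 98.2%) fell in 1 of 25 clusters, and the next cluster with most members held 13. The cluster had 705 cells, of which 168 were not class members, and 121 of these had at least 1 marker UMI. By median UMIs it came second among the clusters of the foxA library, at 1504 UMIs, below a cluster of 215 cells at 1698 UMIs. It came first in the control library, at 1083 UMIs, with the next at 835 UMIs. The description of the class as rich in UMIs holds against the bulk of cells and the other marker classes of at least 50 cells. It does not hold against every cluster of the foxA library. A clustering without the marker and the 50 leading genes put 89.5% of class cells in 1 cluster. As clusters were formed on the same cells and genes, this describes the class and does not test it.

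The class made up a smaller share of the foxA library than of the control library. It was 3.69% of foxA cells (3.25% to 4.16%) and 5.09% of control cells (4.54% to 5.67%), a log2 ratio of −0.46 (−0.71 to −0.22). With each cell thinned to 400 UMIs and at least 2 of them from the marker, the shares were 259 of 6781 foxA cells, 3.82% (3.38% to 4.30%), and 305 of 4540 control cells, 6.72% (6.01% to 7.49%). The log2 ratio was then −0.81 (−1.06 to −0.57). Leaving out the cells under 400 UMIs without any thinning gave nearly the same, with 250 of 6781 foxA cells, 3.69%, and 293 of 4540 control cells, 6.45% (5.76% to 7.21%), a log2 ratio of −0.81 (−1.06 to −0.56). The move from the ratio of −0.46 therefore came with the 1438 shallow control cells that were left out, not with the drawing of UMIs. A minimum of 500 detected genes gave a log2 ratio of −1.12.

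The size of the difference depended on which cells were counted and on how they were assigned. The cluster holding most of the class took 333 foxA cells (4.91%) and 372 control cells (6.22%), a log2 ratio of −0.34 (−0.56 to −0.12). When it was formed without the marker and the 50 leading genes, it took 336 foxA cells (4.96%) and 340 control cells (5.69%), a log2 ratio of −0.20 (−0.42 to 0.02). When it was formed on thinned cells, again without the shallow control cells, it took 4.85% of foxA cells and 7.75% of control cells, a log2 ratio of −0.68 (−0.90 to −0.46). The libraries also differed in depth, with medians of 887 UMIs in foxA and 546.5 UMIs in control cells outside the class, and the part of depth in the difference was not tested.

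**Figure D3:**
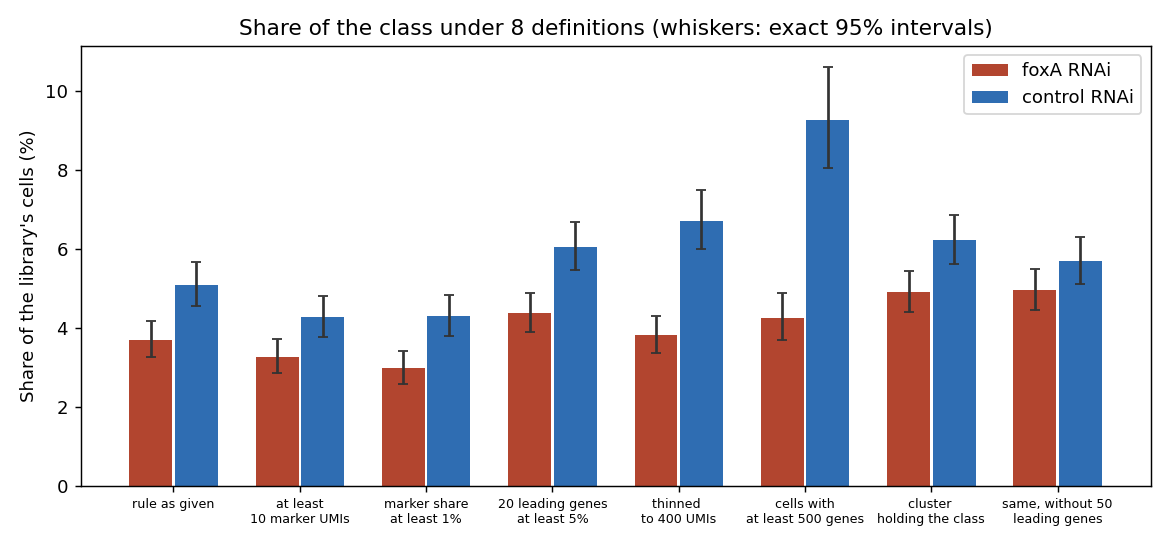
Share of cells in the class, in percent of the cells of the foxA RNAi library and of the control RNAi library, under 8 definitions of the class or of the cells counted, with whiskers for exact 95% binomial intervals (counting error). The foxA bar is the lower of each pair, with 3.69% against 5.09% for the rule as given. The pair lies furthest apart, 4.26% against 9.27%, for cells with at least 500 genes. It lies closest, 4.96% against 5.69% with overlapping intervals, for the cluster formed without the marker and the 50 leading genes.

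Depth inside the class differed between the conditions as it did outside. The ratio of median UMIs, foxA over control, was 1.40 in class cells and 1.62 in other cells. After thinning, the ratio of median detected genes was 1.00 in class cells and 1.03 in other cells.

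The expression profile of the class was compared between conditions from summed UMIs, as log2 of (CPM + 1) in foxA cells over (CPM + 1) in control cells. The class contributed 468202 UMIs in the foxA library and 422936 in the control library. Over the 2185 genes the log2 ratios centred on 0.06, with a median size of 0.25, and for the same genes in other cells they centred on 0.04, with a median size of 0.19. In the foxA class 43 genes (1.97%) were 2-fold or more higher and 29 (1.33%) were 2-fold or more lower. In other cells 26 of the same genes (1.19%) were 2-fold or more higher and 29 (1.33%) 2-fold or more lower. Class cells held 5.97% of the UMIs of kept foxA cells and 9.85% of those of kept control cells, so fewer UMIs lie behind each class value.

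The marker's level in the class was set in part by the rule, and the leading genes were picked for high ratios in both libraries, so their values between the conditions are a description. The marker had 23774 CPM in the foxA class and 22148 CPM in the control class. Of the 20 leading genes, 0 passed 2-fold in either direction, a count near what the 1.97% and 1.33% of all tested genes would give. Among the 50 leading genes 1 was 2-fold or more lower. The log2 ratios of the 20 had a median of −0.05 and ran from −0.53 for SMESG000043277.1 to 0.45 for SMESG000068402.1. SMESG000043277.1 had 2572 CPM in the foxA class and 3724 CPM in the control class. SMESG000068402.1 had 1886 CPM in the foxA class and 1381 CPM in the control class. Outside the class the 20 genes had a median log2 ratio of −0.28, with 1 past 2-fold higher and 3 past 2-fold lower. Of all 2185 genes in other cells, 1.19% were past 2-fold higher and 1.33% past 2-fold lower. Other cells include 56 foxA and 59 control cells with at least 5% of their UMIs from the 20 genes. The part of these cells in the outside ratios was not tested.

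The largest ratios came from a small number of cells. Of the 43 genes past 2-fold higher, 20 (46.5%) had at least 50% of their foxA class UMIs in 3 cells, and of the 29 past 2-fold lower, 8 (27.6%) had at least 50% of their control class UMIs in 3 cells. Among all 2185 genes 32 (1.46%) had at least 50% of their class UMIs, both libraries pooled, in 3 cells. SMESG000040823.1 had the highest ratio. It had 1590 UMIs in 5 foxA class cells, of which 3 cells held 698, 610 and 280, and 1 UMI in the control class, a log2 ratio without a pseudocount of 10.49 (8.01 to 15.79). Without those 3 cells 2 UMIs were left in the foxA class. With a marker share of at least 1% the log2 ratio was 7.61, against 9.98 for the class as defined, both with the pseudocount. In other cells it had 898 CPM in the foxA library and 115 CPM in the control library, a log2 ratio of 2.95.

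SMESG000052463.1 had 429 UMIs in the foxA class, all in 1 cell, and 0 in the control class. This is 129-fold higher when the 0 is taken as 3 counts over the class, and the exact interval of the log2 ratio starts at 6.71. In other cells it was lower in the foxA library, with 88.6 CPM against 367 CPM in the control library (log2 ratio −2.04). Without that 1 cell, which was among the highest 5% of doublet scores of its library, it had 0 UMIs in the foxA class and 0 in the control class.

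SMESG000036225.1 and SMESG000074377.1 had the lowest ratios. SMESG000036225.1 had 0 UMIs in the foxA class and 96 UMIs in 9 of 304 control class cells. This is 35.4-fold lower at the same floor, and the exact interval of the log2 ratio reaches up to −4.82. In other cells it had 0.814 CPM in the foxA library and 469 CPM in the control library. SMESG000074377.1 had 0 UMIs in the foxA class and 58 UMIs in 12 control class cells, 21.4-fold lower at that floor, with an interval up to −4.08. In other cells it had 1.09 CPM in the foxA library and 456 CPM in the control library. Without the highest 5% of doublet scores, the control class kept 18 of the 96 UMIs of SMESG000036225.1 and 30 of the 58 UMIs of SMESG000074377.1, under the minimum of 50. For both genes the direction in the class was that in other cells, and most class cells had none of their UMIs in either condition.

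**Figure D4:**
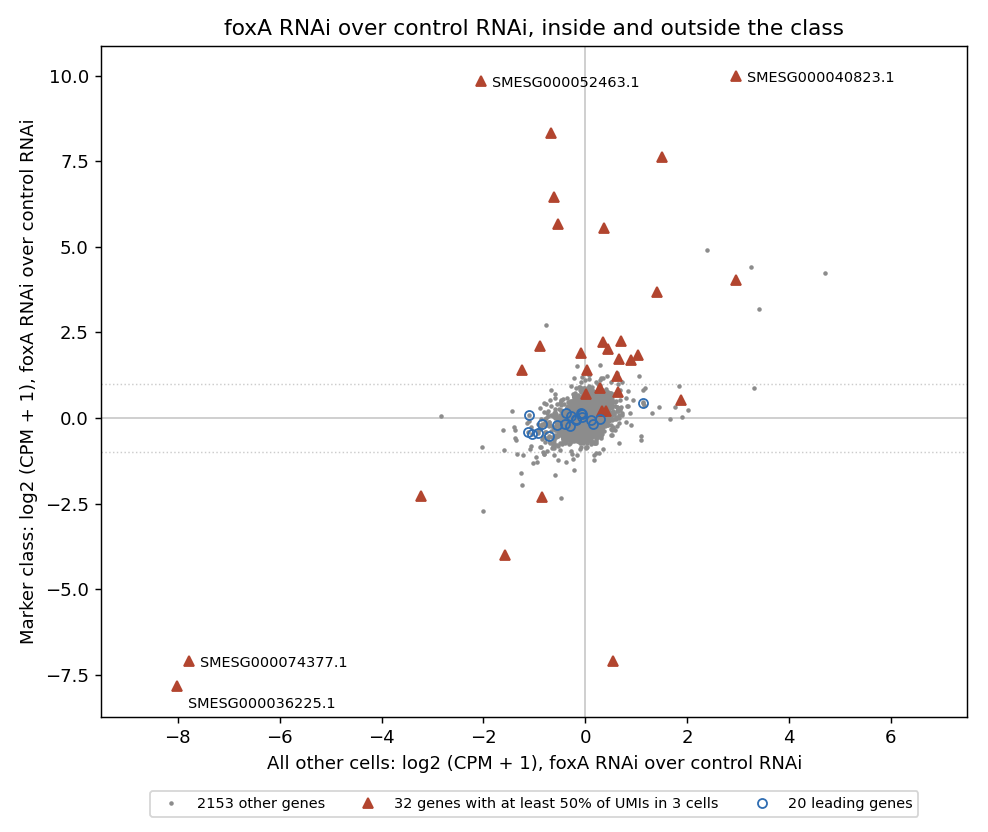
Log2 ratio of (CPM + 1), foxA RNAi over control RNAi, in all other cells (x axis) and in the marker class (y axis) for 2185 genes, with the 20 leading genes ringed and the 32 genes with at least 50% of their class UMIs, both libraries pooled, in 3 cells drawn as triangles. The leading genes lie between −0.53 and 0.45 in the class, and the 4 labelled genes at the extremes are all triangles.

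When genes were required to have a UMI in at least 10% of the class cells of 1 library or more, which was decided after the data were seen, 2017 genes remained. A gene could pass this filter through the library where it was high, so the ratios below are a description. Of these, 22 (1.09%) were 2-fold or more higher and 20 (0.992%) 2-fold or more lower in the foxA class. Their log2 ratios ran from −2.72 to 4.92. Past 4-fold there were 4 genes higher and 2 lower. The broadest of them had 399 UMIs in 87 foxA class cells (34.8%) and 39 UMIs in 33 control class cells (10.9%), or 852 CPM and 92.2 CPM, a log2 ratio of 3.19. In thinned class cells it had a UMI in 16.4% of foxA cells and 3.07% of control cells, and its log2 ratio in other cells was 3.42. This gene was also higher in the class than in other cells, by log2 ratios of 3.82 in the foxA library and 2.88 in the control library.

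Of the other 3 higher genes, the first had 459 CPM in the foxA class and 14.2 CPM in the control class (log2 ratio 4.92, and 2.40 in other cells). The second had 284 CPM in the foxA class and 14.2 CPM in the control class (log2 ratio 4.23, and 4.70 in other cells). In the control class the first and the second had 6 UMIs each. In control cells outside the class the second had 0 UMIs, so its 4.70 depends on the pseudocount. The third had 269 CPM in the foxA class and 40.2 CPM in the control class (log2 ratio 2.71), with the opposite sign in other cells (−0.77). These 3 genes passed the limit of 10% in the foxA library only. In order, they had a UMI in 10.4%, 15.2% and 14.4% of foxA class cells and in 1.97%, 1.64% and 3.29% of control class cells. One of the 2 lower genes had 21.4 CPM in the foxA class and 147 CPM in the control class (log2 ratio −2.72, and −2.01 in other cells). The other had 23.5 CPM in the foxA class and 123 CPM in the control class (log2 ratio −2.34, and −0.48 in other cells). These 2 lower genes had 10 and 11 UMIs in the foxA class. They passed the limit of 10% in the control library only, with a UMI in 13.8% and 11.2% of control class cells and in 3.2% and 3.6% of foxA class cells. The −0.48 rests on 2 UMIs in foxA cells and 3 UMIs in control cells outside the class, too few to give a direction.

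Thinning each class cell to 400 UMIs left 553 genes with at least 50 UMIs. Among these, 10 were 2-fold or more higher and 9 2-fold or more lower in the foxA class after thinning, and 5 and 4 in the same directions for the same genes at the deposited depth. The median log2 ratio after thinning was −0.0032.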

How the data were processed

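Single-cell 3′ RNA libraries of 1 foxA RNAi and 1 control RNAi sample were analysed. The deposited values are whole-number UMI counts per gene and cell, not normalized. Per the file headers Cell Ranger 6.1.2 wrote them, while the submitters' processing notes name Cell Ranger 7. The genome build and cell-calling settings are not given in the sources used here. CPM were computed from summed counts of class or other cells with a pseudocount of 10 (class) or 1 (conditions). Thinning drew 400 UMIs per cell without replacement (fixed seed). Cells were scaled to 10000, and 2000 variable genes, 30 components, 15 neighbours and Leiden resolution 0.5 were used (scanpy 1.11.5, igraph 0.11.9). Scrublet marked 0 foxA and 1 control cells, under 0.5% of cells, which was taken as a caller that had not worked and not as an absence of doublets. No doublets were removed, and its scores served only to rank cells in an alternative. Intervals are exact: Clopper-Pearson for shares, conditional binomial for ratios. edgeR 4.0.16 gave TMM factors as an alternative. The genes named are the marker, the 20 leading and 5 lowest class genes, the 5 most abundant, and the 2 highest and 2 lowest condition ratios. The members and lists were chosen with earlier results of these data known. The scripts were tested on simulated class sums that held counting error only, so the spread between cells was not part of that test.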

Additional observations from a re-analysis of the deposited data

Results flagged for a closer look

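SMESG000052463.1 moved in opposite directions inside and outside the class. Its log2 ratio of foxA over control was 9.84 in class cells and −2.04 in other cells, a difference of 11.9. The difference was not tested, as there was 1 library per condition, and all 429 foxA class UMIs came from 1 cell. That cell was among the highest 5% of doublet scores of the foxA library, and the gene had 0 UMIs in the class without it.

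Marker UMIs were also present in cells that the report leaves out. The 17 foxA cells with under 200 genes held 0 marker UMIs of 11984 UMIs. The 78 control cells with under 200 genes held 62 marker UMIs of 33120 UMIs, and 5 of these cells passed the marker's count and share limits.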

How the results depend on the processing

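No paired analysis was possible because foxA RNAi and control RNAi have 1 library each, and no library could be left out. Some alternatives were added after the data were seen: removing the top cell of each gene, cells passing another marker's rule, keeping genes in 10% of cells, a rule on leading genes, the deposited depth of genes that pass after thinning, and cells with at least 400 UMIs left unthinned. The foxA share was below the control share under each alternative that gives a share. It was 2.98% in foxA and 4.30% in control cells at a marker share of at least 1%, 4.26% and 9.27% (log2 ratio −1.12) at 500 genes or more, and 4.37% and 6.06% with at least 5% of UMIs from leading genes. With 10 or more marker UMIs the control share was 4.27%, in thinned cells 6.72% (log2 ratio −0.81), and in the same cells unthinned 6.45% (log2 ratio −0.81). The depth ratio in control cells was 1.64 at 500 genes or more, and ratios of thinned genes were 0.790 (foxA) and 0.809 (control) for the class over other cells, and 1.00 for foxA over control. Genes past 2-fold higher and lower in the foxA class numbered 262 and 137 of 4930 with at least 20 UMIs per gene (median size 0.32). They numbered 16 and 11 of 1088 with 100 (0.22), and 2594 and 2177 of 13222 with any UMI (0.64). After thinning they numbered 10 and 9 of 553, and 5 and 4 in the same 553 genes unthinned (0.19). The median size was 0.28 with mean per-cell CPM. Higher genes numbered 24 of 1933 without the highest 5% of doublet scores and 22 of 2017 with genes in 10% of cells. The median log2 ratio turned to −0.0097 with TMM and −0.0032 after thinning. Genes 2-fold or more lower in the class than in other cells numbered 727 of 4930 with at least 20 UMIs and 141 of 1732 at a marker share of 1%. After thinning they numbered 23 of 553, with 170 higher. Without the highest 5% of doublet scores, SMESG000052463.1, SMESG000036225.1 and SMESG000074377.1 fell under the minimum of 50 UMIs. The class cluster ranked 1 by pooled median UMIs as clustered above, 3 at resolution 1.0, and 2 with 4000 variable genes, without the leading genes and after thinning. Class cells in 1 cluster were 94.8% with 4000 variable genes and 89.5% without the leading genes. Other filters test other genes by construction, and the cause of the remaining moves was not tested. Depth limits genes to those with 50 UMIs.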
